A study of Homo sapiens with 45 samples.

Results

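RNA abundance was compared in 3 cultures of A375 cells, an established human melanoma line, in which RELA, NMI or SP100 had been silenced by siRNA. All 3 genes encode regulators of immune signalling. Each culture gave 1 array, and these 3 arrays were chosen by the siRNA named in the sample labels from 45 Affymetrix U133 plus 2.0 arrays. A further 36 arrays carried other targeting siRNAs, 3 a control siRNA and 3 untreated cells. The study's methods place the siRNA-RELA, siRNA-NMI and siRNA-SP100 arrays in batch KD2 with 20 arrays of other targets, and the median of these 20 was the reference for every gene. They also describe the siRNAs as commercial pools against each target and the control as an inactive siRNA carrying a fluorescent label. Cells were grown in DMEM with serum, moved to Opti-MEM with Oligofectamine and the siRNA for transfection, and collected after 48 hours. The labels and the methods give different siRNA concentrations. None of the targeting siRNAs has a second culture, so a difference between 1 array and the reference has no replicate error and no test. It is given beside the range of the 20 other arrays, which themselves carry different knockdowns.

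RELA encodes p65, the NF-kB subunit that activates most inflammatory target genes. At rest it is held in the cytoplasm by inhibitors such as the product of NFKBIA, which is itself an NF-kB target, and signals from TNF, IL-1 or Toll-like receptors release it. NMI, the N-myc and STAT interactor, is induced by interferon and binds IFI35 and several STAT proteins. SP100, also induced by interferon, is a constant component of PML nuclear bodies, where it meets PML, DAXX and heterochromatin proteins.

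The arrays had been normalised with RMA, and the deposited values are linear intensities, which were taken to log2 here. Array medians on the log2 scale ran from 5.06 to 5.15 over the 45 arrays. A gene with a median over batch KD2 of at least 8.59, or 1.5 times the median intensity of the 3′ BioB control probe set, was taken as above noise, and 4836 of 19775 genes (24.5%) were. The melanoma genes SOX10, S100B and MITF were above noise and the pigment genes PMEL, MLANA, TYR and TYRP1 below it, in the batch as a whole. None of the 16 leukocyte markers was above noise. Untreated array 3 and control siRNA array 3 were near copies, with 100% of probe sets of the former within 10% of the latter and at most 62.0% in any other combination of arrays, so the control siRNA values below carry this doubt. The batch of the control siRNA arrays is not given. In bulk cultures, fewer cells of a type and less RNA per cell cannot be told apart.

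Each target had its lowest level of the 23 batch arrays in the culture that received its own siRNA. RELA stood at 7.66 on the log2 scale after siRNA-RELA, with 8.38, 8.66 and 8.80 as the lowest, median and highest of the 20 other arrays, a difference of -0.99 or 1.99-fold. NMI stood at 6.60 after siRNA-NMI, where the 20 arrays had 8.55, 8.87 and 9.03, a difference of -2.27 or 4.82-fold. SP100 stood at 6.83 after siRNA-SP100, and the 20 arrays had 7.86, 8.17 and 8.31, a difference of -1.34 or 2.53-fold. No target level overlapped the range of the 20. In the 3 control siRNA arrays RELA had 9.37, 8.66 and 8.24, NMI 8.66, 8.57 and 9.29, and SP100 8.09, 7.93 and 8.47, so each silenced level also lay below all 3 of them. The probe set used for SP100 is below the noise limit. All 6 probe sets of SP100 were lower after siRNA-SP100, from -1.55 to -0.18, and their summary by the median gives -0.56.

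Silencing of 1 target left the other 2 near the reference, with an exception. NMI was 9.20 after siRNA-SP100, 0.33 higher than the median and above all 20 other arrays. The remaining 5 values of a target in another target's array lay between -0.15 and 0.05, inside the range of the 20.

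**Figure D1:**
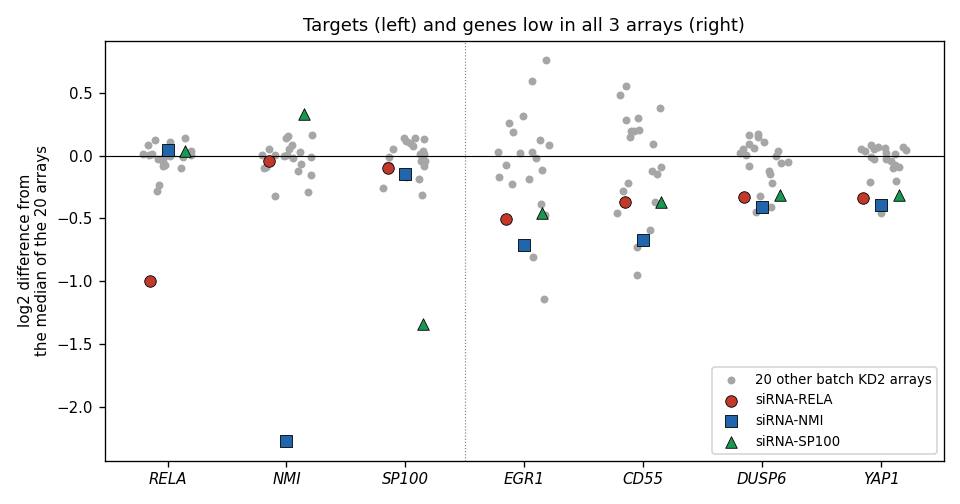
Log2 difference (vertical axis) from the median of 20 batch KD2 arrays for the 3 siRNA targets and for 4 genes that were low in all 3 arrays. Grey points are the 20 arrays with other siRNAs and coloured symbols the 3 arrays, each a single culture. RELA, NMI and SP100 lie below every grey point in their own array, at -0.99, -2.27 and -1.34 from the median. EGR1, CD55, DUSP6 and YAP1 stay within the grey points.

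Among genes above noise, few passed 1.5-fold after siRNA-RELA and siRNA-SP100 and more did after siRNA-NMI. After siRNA-RELA, no gene above noise was higher by 1.5-fold or more (0% of 4836) and 4 were lower (0.0827%), RELA included. After siRNA-NMI, none was higher (0%) and 36 were lower (0.744%), NMI included. After siRNA-SP100, 3 were higher (0.062%) and 3 lower (0.062%). The same count over both directions in the 20 other arrays, each set against the other 19, ran from 1 after siRNA-ABL1 to 94 after siRNA-MAP2K1 with a median of 13. The SD of the differences over all genes above noise was 0.108 after siRNA-RELA, smaller than in all 20. It was 0.129 after siRNA-SP100 and 0.172 after siRNA-NMI, the latter larger than in 18 of 20. The order depended on the noise limit, since over all genes 62 were higher and 24 lower by 1.5-fold after siRNA-SP100, in sum more than in 12 of 20 arrays, against 26 in both directions after siRNA-RELA and 240 after siRNA-NMI. Of the 4836 genes above noise, 401 were above all 20 other arrays after siRNA-SP100 and 75 below all 20. The count above was exceeded in 1 of the 20 arrays, each set against the other 19.

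**Figure D2:**
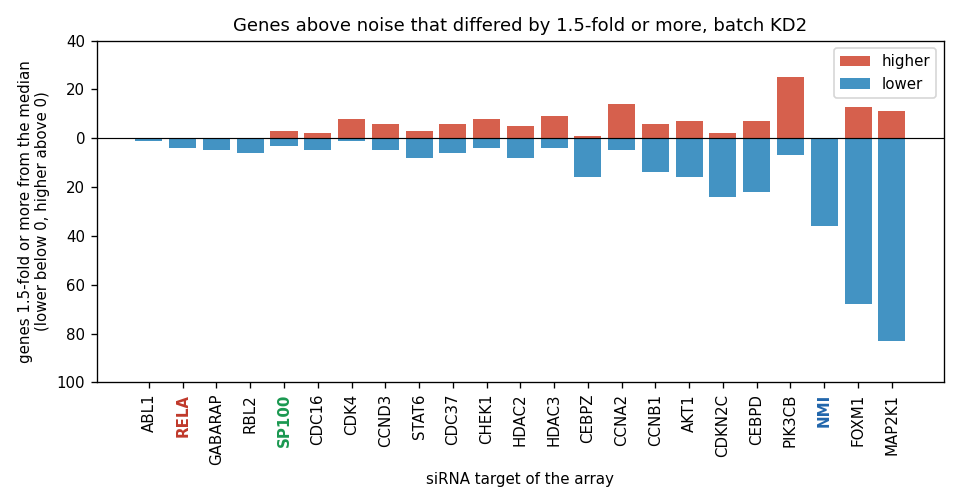
Number of genes above noise that differed from the median of the other batch KD2 arrays by 1.5-fold or more, higher genes above 0 and lower genes below 0, for 23 arrays ordered by the sum. The siRNA-RELA and siRNA-SP100 arrays have 4 and 6 genes, and the siRNA-NMI array has 36, all of them lower.

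The siRNA-NMI array also stood apart in technical measures. The log2 excess of the 3′ over the 5′ actin probe set, a sign of RNA quality, was 1.09, below all 20 other arrays (1.17 to 2.08), the same excess for GAPDH was -0.043, above 18 of 20, and the BioB probe set was 6.81, below 19 of 20. Genes above noise had a median difference of -0.056 in this array, lower than in all 20. Markers of cell types that the culture should not hold were more often higher than lower. This held for 13 of 16 leukocyte, 9 of 10 fibroblast, 7 of 9 keratinocyte and 7 of 8 endothelial markers, of which only KRT10 was above noise. Over all genes, dim ones included, 55.1% were higher and 44.8% lower in this array. The list medians were above all 20 arrays for leukocyte markers at 0.13 (highest of the 20: 0.11), keratinocyte markers at 0.20 (0.12) and endothelial markers at 0.18 (0.13), and above 16 of 20 for fibroblast markers at 0.14. The summed intensity of these lists stayed inside the range of the 20, for leukocyte markers at 698 (583 to 863) and for endothelial markers at 425 (303 to 494). The part of these properties in the siRNA-NMI values was not tested.

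NF-kB genes did not differ as a group after siRNA-RELA. The list of inflammatory NF-kB targets had 15 members higher and 14 lower of 29, with a median log2 difference of 0.04, where 52.8% of all genes were higher and 47.2% lower. Survival, redox and growth targets had 12 higher and 10 lower of 22, with a median of 0.01. NF-kB subunits, inhibitors and kinases other than RELA had 13 higher and 8 lower of 21, with a median of 0.02. The median over all genes was 0.01. No member above noise other than RELA differed by 1.5-fold. Most of the inflammatory genes were dim here, with 2 of 29 above noise.

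Among the targets, ICAM1, the leukocyte adhesion receptor, had 8.07 after siRNA-RELA, with 8.13, 8.40 and 10.25 as lowest, median and highest of the 20, a difference of -0.33. CXCL6, a neutrophil chemokine at a level of 3.09, was the other of the 29 below all 20, and none was above all 20. Over all genes, 2.35% were below and 2.42% above all 20 arrays after siRNA-RELA. The chemokine CXCL8, 1 of the 2 inflammatory targets above noise, had 8.75 (20 arrays: 7.76, 8.90 and 12.94), and IL24, the other, had 9.61 (8.24, 9.51 and 10.21). CXCL2, another neutrophil chemokine, was 0.84 higher at 6.43 (4.89, 5.59 and 11.71), above 19 of 20 but under the noise limit. LIF and IL1A, a cytokine of the IL-6 family and an alarm cytokine, differed by -0.39 and -0.36 inside the range.

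In the probe sets used, the feedback inhibitors and partner subunits of p65 lay within the range of the 20. NFKBIA differed by 0.01 and TNFAIP3, a deubiquitinase that ends NF-kB signalling, by 0.13. NFKB1, the precursor of p50 and the usual partner of p65, had 9.64 (20 arrays: 9.45, 9.69 and 9.97). NFKB2 differed by 0.05, REL by -0.01 and RELB by -0.23, the latter above 2 of the 20. Of the 3 probe sets of NFKB2, 2 were lower (-0.55 to 0.05). Of the 5 probe sets of REL, 4 were lower (-0.26 to 0.11). NFKB2, REL and RELB were all under the noise limit. NFKBIZ, an inducible nuclear cofactor, was 0.47 higher, above 19 of 20. The highest array of the 20 was siRNA-PIK3CB for the medians of all 3 NF-kB lists, at 1.21 for inflammatory targets, 0.36 for survival targets and 0.24 for the subunits and inhibitors, so members of these lists were measured at high levels elsewhere in the batch. The promoters of these targets were searched on both strands, over the 250 bases before the RefSeq gene start, for a kB-like pattern, GGG and CC separated by any 5 bases. It was present in 18 of 23 inflammatory targets with a promoter in the table (78.3%), in 53.7% of all 27305 promoters and in 63.5% of those of the 15384 measured genes that the table holds, so it is a common pattern. The 8 lowest genes after siRNA-RELA held it in 5 promoters (62.5%).

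**Figure D3:**
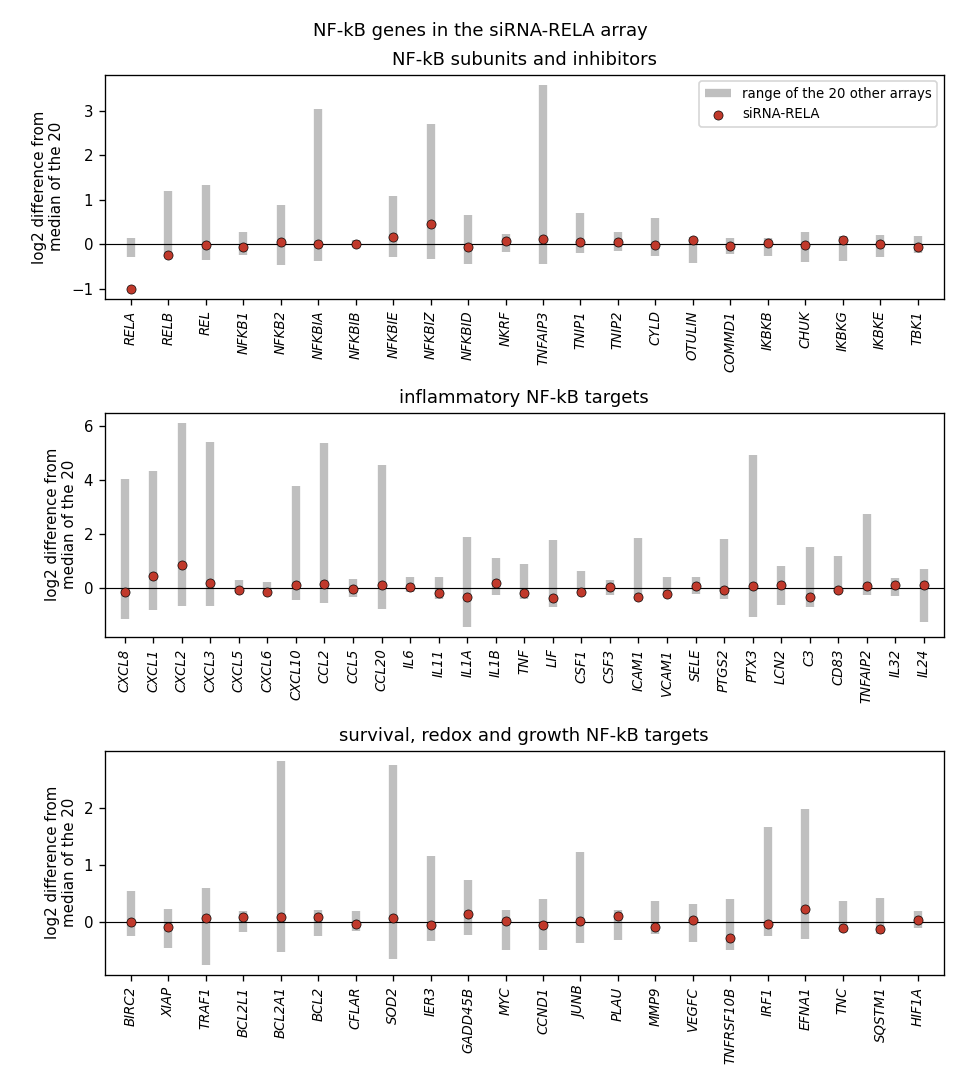
Log2 difference from the median of 20 batch KD2 arrays (vertical axis) of NF-kB subunits and inhibitors (top), inflammatory targets (middle) and survival, redox and growth targets (bottom) in the siRNA-RELA array. Grey bars span the 20 other arrays. RELA itself lies at -0.99 from the median and below its bar, ICAM1 and CXCL6 lie just below theirs, and all other genes lie within them.

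Upstream of NF-kB, 24 of 33 genes of TNF, IL-1, Toll-like receptor and nucleic acid signalling were lower after siRNA-RELA (all genes: 47.2%). Their median of -0.04 was inside the range of the 20 arrays (-0.07 to 0.12). With array medians aligned it was -0.058, above 1 of the 20. IRAK1, the kinase below the IL-1 receptor, had 11.37 (20 arrays: 11.49, 11.68 and 11.94), below all 20. MAP3K8, a kinase of the same pathways, was above all 20 at a level of 3.72, under the noise limit. OSMR, the oncostatin M receptor, differed by -0.57, below all 20 at 7.98 (8.28, 8.55 and 8.95). The class I genes HLA-B and HLA-C differed by -0.25 and -0.27, each below 19 of 20. Interferon-stimulated genes had 34 members higher and 19 lower of 53 after siRNA-RELA, with a median of 0.04, inside the range of the 20. BST2 and IRF9 differed by -0.41 and -0.40 and IFIT3 by 0.30.

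The genes past 1.5-fold after siRNA-RELA were not NF-kB targets of the lists. GNA12, a G protein alpha subunit, had 8.14 (20 arrays: 8.59, 8.81 and 8.97), a difference of -0.67, but its 2 probe sets had -0.67 and -0.17. ACOT7, an acyl-CoA thioesterase, had 10.56 (10.96, 11.18 and 11.40), a difference of -0.62, with -0.56 in its second probe set. NPM3, a nucleoplasmin family histone chaperone, had 8.18 (7.89, 8.79 and 9.20) and lay within the range. GALNT7, M6PR, CLIP4 and TFPI2 followed at -0.57 to -0.56. The 8 highest genes were IGFBP7 and TOP2A at 0.49, CBX5, SDAD1, NAA15, ZNF367, KLHL8 and CDCA3, and none reached 1.5-fold. Some of their probe sets were lower, 3 of 6 for CBX5, 1 of 6 for NAA15 and 1 of 3 each for SDAD1 and KLHL8.

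Cell cycle genes were slightly higher after siRNA-RELA. Of the 40 G2/M and mitosis genes measured, 38 were higher with a median of 0.15. TOP2A, the decatenating topoisomerase, led at 11.48 (20 arrays: 10.54, 10.99 and 11.31), with 0.0075 to 0.49 over its 3 probe sets. ASPM followed at 0.35 and CCNA2 at 0.31. The list median exceeded that of 14 of 20 arrays, so this level was common in the batch. Of 41 replication and G1/S genes, 35 were higher with a median of 0.08, and GINS4 was the lowest at -0.60. Endoplasmic reticulum chaperones were lower in 14 of 15, with a median of -0.13, under all but 1 of the 20 arrays (-0.16 to 0.15), and at -0.15 below all 20 with array medians aligned. PDIA4 and HYOU1, both folding factors of that compartment, had the lowest values at -0.40 and -0.34.

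After siRNA-NMI the interferon-stimulated genes split evenly. Of 52 measured members other than NMI, 26 were higher and 26 lower, with a median of -0.00, where 55.1% of all genes were higher and 44.8% lower in this array. The members below all 20 arrays were IFIT3, SAMD9, IRF9 and TRIM5, a retroviral restriction factor. IFIT3, an interferon-induced antiviral protein, had 7.20 (20 arrays: 7.20, 7.75 and 8.06), just under the lowest of the 20 and -0.55 from their median. SAMD9, a cytoplasmic restriction factor of poxviruses, had 7.01 (7.10, 7.41 and 7.79), a difference of -0.41. IRF9, the DNA-binding subunit of the complex ISGF3, had 6.79 (6.88, 7.37 and 7.69), a difference of -0.58. DHX58, an RNA sensor of the RIG-I family, was the member above all 20, at 0.31. All 5 lie under the noise limit, and in this array 7.9% of all genes were below and 12.7% above all 20.

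The binding partners of NMI that were measured lay on both sides of the reference. Their median after siRNA-NMI was 0.04, inside the range of the 20 arrays (-0.09 to 0.11). With array medians aligned it was 0.10, above all 20 (highest: 0.085). IFI35, which forms a complex with NMI, had 8.76 in this array and 8.45, 8.76 and 9.04 in the 20. STAT3 differed by -0.05, STAT6 by -0.02, STAT5B by 0.13 and MYC by -0.07. STAT5A was 0.35 higher, above all 20. SOX10, which NMI is reported to bind, differed by 0.05.

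The JAK-STAT list had the lowest median of the batch after siRNA-NMI, but that depended on the probe set. Of 35 members other than NMI, 26 were lower, where 44.8% of all genes were lower in this array. The median was -0.17, below all 20 arrays (-0.08 to 0.10). Interferon receptor chains were among them, with IFNAR1 at -0.56 (6.99, with 6.99 to 7.75 in the 20) and IFNGR1 at -0.36 (8.04, with 8.16 to 8.52). So were SOCS6, a suppressor of cytokine signalling, at -0.52, PIAS1, a STAT inhibitor, at -0.23 and the phosphatase PTPN11 at -0.15, all below all 20. In this array 7.9% of all genes were below all 20 and 12.7% above. Among the 4836 genes above noise, 593 were below all 20 and 233 above. IFNGR2, the other chain of the interferon gamma receptor, was 0.21 higher. With the probe set of largest variance per gene the list median was -0.06, with a median across probe sets -0.01, and against control siRNA 0.06.

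PML body genes were lower in 18 of 23 after siRNA-NMI, where 44.8% of all genes were lower. Their median was -0.13, below all 20 arrays (-0.11 to 0.08) as deposited. With array medians aligned it was -0.069, above 2 of the 20. For the single genes that follow, 593 of the 4836 genes above noise were below all 20 in this array and 233 above. HIRA, a histone H3.3 chaperone that enters PML bodies, had 7.51 (20 arrays: 7.92, 8.39 and 8.83) and the acetyltransferase CREBBP 9.06 (9.10, 9.40 and 9.54). HIRA was also below all 20 after siRNA-RELA, at 7.61, and within the range after siRNA-SP100, at 8.62, and its median in the batch lay under the noise limit. IKBKB, a catalytic subunit of the IkB kinase, was the NF-kB gene below all 20 after siRNA-NMI among subunits, inhibitors and kinases, at -0.41. TLR4, the endotoxin receptor, differed by -0.70, above 1 of the 20, and the IL-1 receptor subunit IL1RAP by -0.56, below all 20, while the interferon regulator IRF3 was above all 20 at 0.17. B2M, the light chain of class I molecules, had 13.14 (13.22, 13.34 and 13.46) and the peptide transporter TAP1 7.68 (7.79, 7.99 and 8.22). Other class I genes were high, with HLA-B at 11.50 and HLA-C at 11.77, above 19 and 18 of 20, and the 25 antigen presentation genes had 9 higher and 16 lower with a median of -0.06, inside the range. Endoplasmic reticulum chaperones were lower in 12 of 15, with a median of -0.20, below all 20 (-0.16 to 0.15), and at -0.14 still so with array medians aligned.

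The 36 genes lower by 1.5-fold or more after siRNA-NMI included TLR4, CD55 and EGR1 but no interferon-stimulated gene of the list other than NMI. The lowest after NMI were TMEM64 at -0.97, the noncoding RNA OIP5-AS1 at -0.89, the IGF-binding protein IGFBP5 at -0.84, the nuclear receptor corepressor LCOR at -0.80, the cyclophilin PPIC at -0.78, and PMEPA1, a TGF-beta target, and USP53, both at -0.76. TMEM64 had 8.33 (20 arrays: 8.64, 9.30 and 10.15) and was lower in all 3 of its probe sets. IGFBP5 had 8.35 and lay within the range of the 20 (7.96 to 10.05). The highest genes were EIF5A, a translation factor, at 0.54 (12.47, with 10.96 to 12.33 in the 20) and FST, the activin antagonist follistatin, at 0.44 (11.79, with 10.95 to 12.07). N4BP1, TIMM10, TMEM250, PPP1R14B, LMNA and RNPEP followed, down to 0.37, each above all 20, though 3 of the 4 probe sets of N4BP1 were lower (-0.29 to 0.41). With array medians aligned, 21 genes were 1.5-fold lower and 1 higher, and when a gene's probe sets were summarised by their median, 17 were lower.

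After siRNA-SP100, interferon-stimulated and antigen presentation genes were mostly higher by small amounts. Of 52 interferon-stimulated genes other than SP100, 40 were higher, where 53.5% of all genes were higher and 46.5% lower in this array. Their median of 0.12 was above all 20 arrays (-0.14 to 0.09) as deposited, but with array medians aligned it was 0.086, above 19 of 20, with 0.12 after siRNA-MAP2K1. The median over all genes was 0.01. Of the 14 members above noise, 12 were higher and none differed by 1.5-fold, and the median of the 14 was 0.10, where 62.8% of all genes above noise were higher with a median of 0.036. The latter median was above those of all 20 arrays. The 3′ over 5′ log2 excess in this array was 1.65 for actin and -0.046 for GAPDH, each above 18 of 20, and keratinocyte markers had a median of -0.14, below all 20 (lowest: -0.11). The part of these properties in the siRNA-SP100 values was not tested. The list median stayed between 0.09 and 0.15 under every reference, probe set and centring tried.

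Of these genes, 6 were above all 20 arrays and none below, where 6.83% of all genes were above and 4.93% below. SAMD9 had 7.92 (20 arrays: 7.10, 7.41 and 7.79), a difference of 0.51, and its neighbour and paralogue SAMD9L had 6.53 (5.56, 6.13 and 6.43), a difference of 0.40. PARP9, an ADP-ribosyltransferase family member, had 7.73 (6.78, 7.31 and 7.70), a difference of 0.42. IFIT3 had 8.07 (7.20, 7.75 and 8.06), a difference of 0.32. SP110, a relative of SP100, had 8.43, 0.12 higher, and was also above all 20 after siRNA-RELA, at 8.45. NMI itself was the sixth. IFIT2 had the largest difference of the list at 0.58 (7.01, with 6.10 to 7.13 in the 20). HERC5, the ISG15 ligase, and IRF9 were the lowest at -0.29 and -0.26. Apart from NMI, the genes given here by name were under the noise limit.

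Promoters of 3 interferon genes that stood outside the 20 arrays are shown because an interferon-stimulated response element would lie there. The 250 bases before the gene start were taken from RefSeq (GRCh38.p14) and searched on both strands for an ISRE-like pattern, GAAA and GAAA separated by any 2 bases, whose matches are in capitals. A match was present in 22 of 42 interferon-stimulated genes with a promoter in the table (52.4%), in 3.07% of all promoters and in 2.48% of those of measured genes. A GAS-like pattern, TTC and GAA separated by any 3 bases, was present in 8 of the 42 and in 6.78% of all promoters. These 3 promoters were chosen after their values were seen. A match is a description of the letters, not evidence of a site. The NMI promoter (chr2:151289669-151289918, minus strand) has 1 match, beginning 163 bases upstream of the start, the IFIT3 promoter (chr10:89327747-89327996, plus strand) has 2, at 156 and 122 bases, and the SAMD9 promoter (chr7:93117980-93118229, minus strand) has 1, at 136 bases.
NMI: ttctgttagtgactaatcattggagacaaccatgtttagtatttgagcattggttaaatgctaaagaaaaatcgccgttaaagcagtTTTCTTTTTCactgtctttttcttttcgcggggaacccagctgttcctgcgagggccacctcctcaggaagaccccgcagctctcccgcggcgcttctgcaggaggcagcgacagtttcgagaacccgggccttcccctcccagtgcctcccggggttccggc
IFIT3: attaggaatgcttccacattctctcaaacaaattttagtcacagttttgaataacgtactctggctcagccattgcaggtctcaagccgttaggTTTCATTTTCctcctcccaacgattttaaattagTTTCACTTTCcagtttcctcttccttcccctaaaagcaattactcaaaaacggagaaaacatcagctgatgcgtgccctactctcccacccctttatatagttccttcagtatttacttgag
SAMD9: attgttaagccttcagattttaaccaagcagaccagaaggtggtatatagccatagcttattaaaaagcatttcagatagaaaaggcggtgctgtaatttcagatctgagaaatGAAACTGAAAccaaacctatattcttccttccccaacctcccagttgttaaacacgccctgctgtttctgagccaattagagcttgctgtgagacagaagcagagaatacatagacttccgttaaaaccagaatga

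Of these genes, IFIT3 and SAMD9 were below all 20 arrays after siRNA-NMI and above all 20 after siRNA-SP100. After siRNA-RELA they differed by 0.30 and 0.18, within the range.

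Antigen presentation genes were higher in 20 of 25 after siRNA-SP100, with a median of 0.12, above 19 of 20 arrays (-0.17 to 0.14), and of 0.084 with array medians aligned, above 18 of 20. HLA class II genes were well above noise in these cells and at or near the top of the range. HLA-DRB1 had 12.01 (20 arrays: 11.47, 11.75 and 11.93), HLA-DPA1 12.89 (12.45, 12.65 and 12.77) and HLA-DRA 12.93 (12.42, 12.67 and 12.94). HLA-DMA, which loads peptides on class II molecules, had 10.50 (9.74, 10.13 and 10.54), a difference of 0.37. CIITA, the transactivator of class II genes, was 0.27 higher and above all 20, below noise. Of the class I pathway, HLA-E and the proteasome activator subunit PSME1 were above all 20, at 0.14 and 0.21, whereas HLA-B, HLA-G and B2M differed by 0.02, -0.02 and -0.05.

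**Figure D4:**
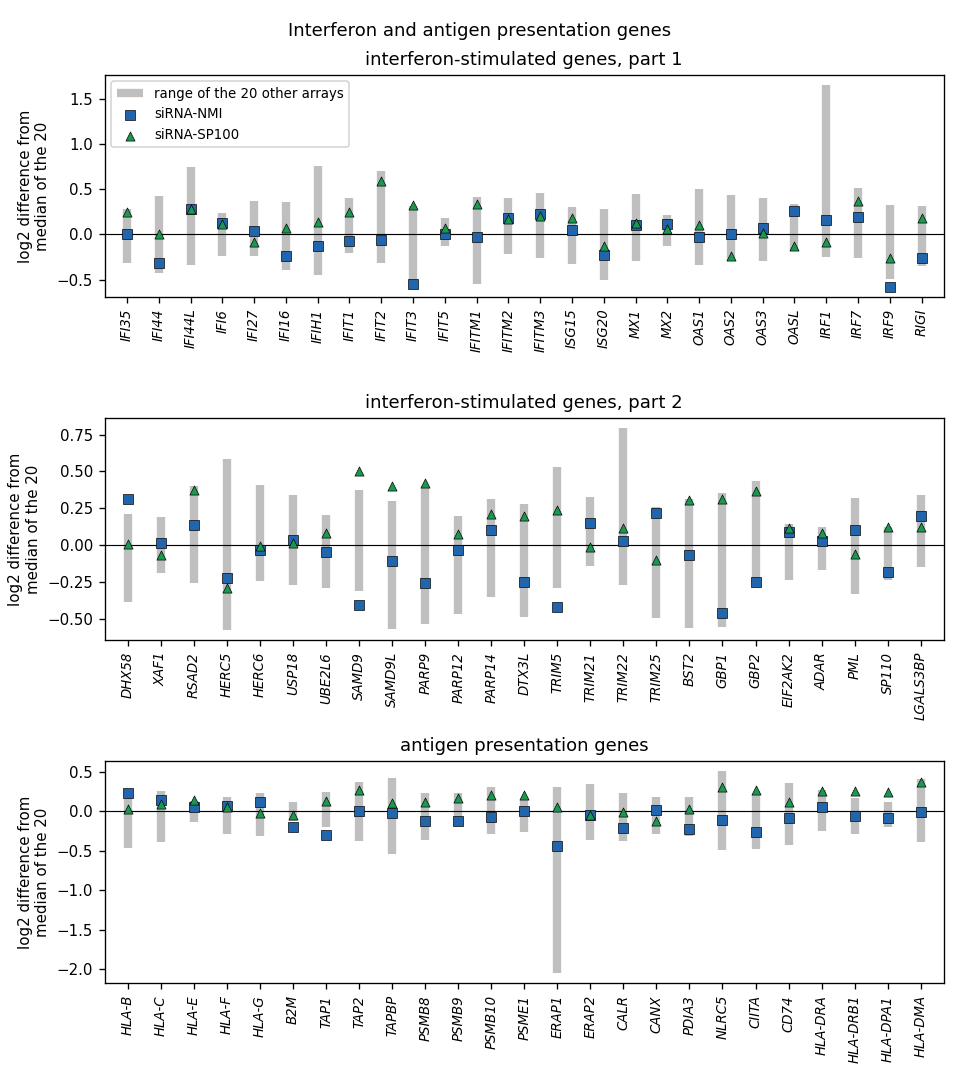
Log2 difference from the median of 20 batch KD2 arrays (vertical axis) of interferon-stimulated genes (top and middle) and antigen presentation genes (bottom) in the siRNA-NMI and siRNA-SP100 arrays. Grey bars span the 20 other arrays. Most triangles of siRNA-SP100 lie above 0 (40 of 52, including NMI, which is not drawn, and 20 of 25), while the squares of siRNA-NMI lie on both sides. Squares below their bars include IFIT3, SAMD9, TRIM5 and IRF9 among interferon-stimulated genes and B2M and TAP1 among antigen presentation genes.

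Other PML body genes were near the reference after siRNA-SP100, with 13 higher and 9 lower of 22 and a median of 0.02. PML, the scaffold of the bodies, differed by -0.06, DAXX by -0.11 and ATRX by 0.22. SP140L, a further relative of SP100, was 0.18 higher and above 19 of 20. CBX5, the heterochromatin protein HP1 alpha that binds SP100, had 9.20 (20 arrays: 5.99, 9.68 and 10.02), a difference of -0.48, but its 6 probe sets ranged from -0.77 to 0.16. The lowest CBX5 value of the batch was in siRNA-FOXM1. SENP1, a SUMO protease, differed by -0.36.

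Cell cycle genes and genes downstream of ERK were lower after siRNA-SP100. Of 40 G2/M and mitosis genes, 38 were lower, with a median of -0.20, and 5 of the 20 arrays had a lower median. KIF23, UBE2C and FOXM1, a kinesin, a ubiquitin-conjugating enzyme and a mitotic transcription factor, had -0.46, -0.44 and -0.36. Replication and G1/S genes were lower in 39 of 41, with a median of -0.12, led by RRM2 at -0.32. Of 19 ERK output genes, 18 were lower, with a median of -0.17, and 3 of the 20 arrays had a lower one. CCND1, which encodes cyclin D1, had 9.17 (20 arrays: 9.53, 10.03 and 10.43), a difference of -0.86 or 1.81-fold, with -0.85 in its second probe set. MYC was the exception of the list, 0.25 higher and above all 20.

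**Figure D5:**
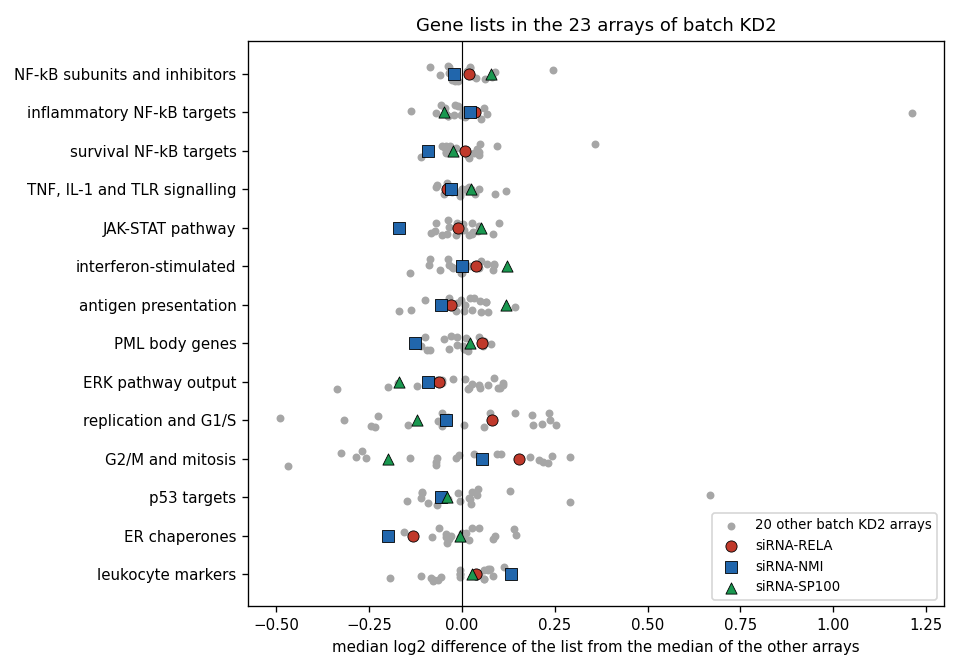
Median log2 difference of 14 gene lists (rows) in the 23 batch KD2 arrays, each array set against the median of the other arrays, with the target left out of its own array. Grey points are the 20 arrays with other siRNAs. The siRNA-SP100 array has the highest median of interferon-stimulated genes, at 0.12, but not with array medians aligned (0.086), the siRNA-NMI array the lowest of JAK-STAT genes, at -0.17, though -0.01 with a median across probe sets, and the siRNA-RELA array lies among the grey points for all 3 NF-kB lists.

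The genes past 1.5-fold after siRNA-SP100 were MGP, ROPN1B and HIPK3, higher, and CCND1, IL24 and GGCX, lower. MGP, the matrix Gla protein that inhibits calcification, had 10.11 (20 arrays: 8.20, 9.02 and 10.53), a difference of 1.09, with 0.51 in its second probe set. GGCX, the carboxylase that activates Gla proteins, had 8.58 (8.76, 9.19 and 9.45), a difference of -0.61 that turned to 0.16 with the probe set of largest variance and to 0.084 with the median over probe sets. ROPN1B, a sperm fibre protein gene, had 9.38 (8.04, 8.58 and 8.92). The highest MGP and ROPN1B levels of the 20 were both in siRNA-MAP2K1. HIPK3, a kinase, differed by 0.69 with a range of -0.04 to 0.69 over its 4 probe sets. IL24 had 8.87 and lay within the range of the 20 (8.24 to 10.21).

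Several NF-kB target genes were low after siRNA-SP100, although members of that list went both ways. Of 29 inflammatory targets, 12 were higher and 17 lower, with a median of -0.05. With array medians aligned the median was -0.085, above 1 of the 20 arrays. TNF had 4.05 (20 arrays: 4.07, 4.48 and 5.38), and CSF1, SELE and CXCL6 were also below all 20, all 4 under the noise limit. Over all genes, 4.93% were below and 6.83% above all 20 in this array. CXCL8 had 8.35 (7.76, 8.90 and 12.94), a difference of -0.55. SOD2, the mitochondrial superoxide dismutase, was 0.61 higher, above 19 of 20 and below noise. Upstream, the receptor genes TLR3 and TLR6 were above all 20, at 0.35 and 0.28 and under the noise limit. FN1, which encodes fibronectin, had 10.65 (9.65, 10.10 and 10.73), a difference of 0.55, but its 7 probe sets ranged from -0.23 to 0.55 and 2 were lower. NACC2, EDEM3 and CD9 at -0.50 to -0.46 and DCP2, GNG2, HBE1 and CHN1 at 0.45 to 0.49 completed the 8 lowest and 8 highest genes.

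No gene differed by 1.5-fold or more in all 3 arrays, in either direction (0% and 0% of 4836), and none did so in any 2 of them. At a smaller fold, a log2 difference of 0.32 or more, EGR1 and CD55 were lower in all 3 (0.0414%), and no gene was higher in all 3 (0%). The 3 differences share the same 20 reference arrays. The same sign in all 3 was found for 627 genes higher (13.0%) and 539 lower (11.1%) of the 4836.

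EGR1, an immediate early transcription factor, had 9.0, 8.79 and 9.05 after siRNA-RELA, siRNA-NMI and siRNA-SP100, where the 20 arrays had 8.37, 9.50 and 10.26. These are differences of -0.50, -0.71 and -0.46. The 3 probe sets of EGR1 were all lower after siRNA-RELA and 2 of them after siRNA-NMI and siRNA-SP100. From 2 to 3 of the 20 arrays were lower, with the lowest in siRNA-STAT6, so EGR1 was not outside the batch in any of the 3. CD55, which protects cells from complement, had 10.35, 10.04 and 10.35 (20 arrays: 9.77, 10.72 and 11.27), and from 2 to 5 of the 20 were lower. The control siRNA arrays had 9.45, 8.66 and 11.46 for EGR1 and 10.15, 10.15 and 11.62 for CD55, and spanned the values of the 3 arrays, except that CD55 after siRNA-NMI was below all of them.

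The 250 bases before the EGR1 start (chr5:138465229-138465478, plus strand, RefSeq GRCh38.p14) are shown because serum response factor is known to bind CArG boxes there. The CArG box was searched for after the EGR1 values were seen. Its 2 matches, in capitals, begin 105 and 83 bases upstream of the start, and 1.14% of all 27305 promoters hold a match. Of the 9 promoters in the table for the 10 lowest shared genes, those of EGR1 and NPM3 hold it.
EGR1: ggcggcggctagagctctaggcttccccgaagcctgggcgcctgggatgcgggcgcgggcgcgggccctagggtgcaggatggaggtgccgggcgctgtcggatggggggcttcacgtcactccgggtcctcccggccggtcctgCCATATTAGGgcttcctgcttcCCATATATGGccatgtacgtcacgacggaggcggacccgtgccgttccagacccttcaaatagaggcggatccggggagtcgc

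DUSP6, the ERK phosphatase that is induced by ERK, followed with 11.10, 11.03 and 11.12 (20 arrays: 10.99, 11.44 and 11.60). YAP1, the Hippo pathway coactivator, had 9.92, 9.85 and 9.94 (9.79, 10.25 and 10.33), so that 1 of the 20 arrays was lower than any of the 3. SLC35E1 was below all 20 after siRNA-RELA and siRNA-SP100 and above 1 of them after siRNA-NMI, at -0.28, -0.34 and -0.26. PPFIBP1, LINC00622, NPM3, GPRC5A and COLCA1 completed the 10 lowest shared genes. The 10 highest were NFATC2, the calcineurin-dependent transcription factor of activated T cells, at 0.28, 0.20 and 0.39, followed by PPM1F, SELENOW, ABHD17A, ROPN1B, SCARA5, RXYLT1, CAVIN3, COX18 and ALDOC. After siRNA-NMI, 3 of the 4 probe sets of NFATC2 were lower (-0.18 to 0.20), and none was after siRNA-RELA or siRNA-SP100. CAVIN3 was above all 20 in all 3 arrays, at 9.323, 9.359 and 9.445, with 9.321 as the highest of the 20. The differences from the median of the 20 were 0.13, 0.17 and 0.25. For CAVIN3 the control siRNA arrays had 9.49, 9.17 and 9.26.

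A test of the mean of the 3 arrays against the mean of the 20 in limma called no gene at an adjusted p under 0.05 (0% of 19775), and 988 had an unadjusted p under 0.05. YAP1 had the lowest p among the 20 genes named as shared, with a difference of -0.31 (SE 0.079). Its unadjusted p was 0.000557 and its Benjamini-Hochberg adjusted p 0.796 in limma. YAP1 was lower than the median of the 20 in 3 of 3 arrays, but the choice of the shared genes required 1 sign in all 3. Against the 3 control siRNA arrays its difference was 0.099, in the opposite direction. EGR1 had -0.50 (SE 0.227) and an adjusted p of 0.971, and CD55 -0.41 (SE 0.219) and an adjusted p of 1. The p-values measure only the spread between these cultures, which carry different siRNAs.

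The BCL2 family, which holds NF-kB targets such as BCL2L1 and BCL2A1, was a list in which both siRNA-RELA and siRNA-NMI had a median above all 20 arrays (-0.16 to 0.07), with 11 and 10 of 15 members higher and medians of 0.07 and 0.09. With array medians aligned, siRNA-NMI was still above all 20, at 0.14, and siRNA-RELA above 18 of 20, at 0.057. Only 3 of the 15, MCL1, BID and PMAIP1, were above noise. MCL1, which protects melanoma cells from apoptosis, was lower in all 3 arrays at -0.26, -0.13 and -0.22, within the range of the 20.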

How the data were processed

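RNA abundance was measured on Affymetrix U133 plus 2.0 arrays with 1 array per siRNA. The authors processed the arrays with RMA and deposited linear intensities, and the RMA version is not given in the sources used here. Groups came from the sample labels and batch KD2 from the methods of the study. Values were taken to log2 without further normalisation. Of 54675 probe sets, 41097 had 1 gene in the table of names, 1801 had several and 11777 none, and the latter kinds were left out. For genes with several probe sets, that of the highest mean over batch KD2 was used. Differences were taken from the median of the 20 arrays of batch KD2 with other siRNAs. The mean of the 3 arrays was compared with that of the 20 in limma 3.58.1 (R 4.3.3), with Benjamini-Hochberg adjustment over 19775 genes, after a trial on simulated data. Other steps used Python 3.11.15, numpy 2.4.6 and pandas 2.3.3. The text names the targets, the 8 highest and 8 lowest genes of each array, the 10 highest and 10 lowest shared genes, and extreme members of the gene lists, and members outside the 20 arrays, picked after their values were seen. The arrays, lists and rules were chosen with earlier results of these data known. Alternatives varied the reference, the probe set, the centring, the fold, the noise limit and the arrays. Precision is limited by the number of arrays. Untreated arrays entered the array medians, the noise limit and the search for near copies, and no comparison between groups. Tumour data and MCF-7 cells were not used here.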

Additional observations from a re-analysis of the deposited data

How the results depend on the processing

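The low levels of RELA, NMI and SP100 in their own arrays kept their direction under every reference, probe set and centring tried. The counts of genes past the fold depended on the reference. With the 3 control siRNA arrays as reference, whose batch is not given, siRNA-RELA had 106 genes higher and 50 lower, siRNA-NMI 55 and 75, siRNA-SP100 175 and 62, and all 3 shared 39 higher and 21 lower. The survival NF-kB median after siRNA-RELA was then -0.13 and the JAK-STAT median after siRNA-NMI 0.058. Against the mean of the 20 arrays, siRNA-RELA had 1 gene higher. With the probe set of largest variance, the JAK-STAT median was -0.062, SP100 differed by -1.55 in its own array and GGCX by 0.16. With the median over probe sets, siRNA-RELA had 2 genes lower, siRNA-NMI 17 lower and siRNA-SP100 1 higher, the JAK-STAT median was -0.0088, SP100 differed by -0.56 and GGCX by 0.084. With array medians aligned, siRNA-NMI had 1 gene higher and 21 lower and a JAK-STAT median of -0.11. At a log2 difference of 0.32, the counts higher and lower were 23 and 58 after siRNA-RELA, 21 and 337 after siRNA-NMI and 58 and 32 after siRNA-SP100, with 2 shared lower. At 2-fold, siRNA-RELA had 0 genes lower, siRNA-NMI 1 lower, and siRNA-SP100 1 higher and 0 lower. Without a noise limit, the counts were 10 and 16, 44 and 196, and 62 and 24, and with the limit at the BioB median siRNA-SP100 had 6 and 6. Fewer or more genes are past a larger or smaller fold or limit by construction, and for the other settings the cause was not tested. The shared YAP1 difference was 0.099 against control siRNA in limma. The limma count was 0 in each of its 9 alternatives, with lowest adjusted p-values from 0.0560 without the siRNA-SP100 array to 1. The count of genes past 1.5-fold was 0 in both directions without any of the 3 arrays, a choice made after seeing the data. Under other settings, 127 values of the main results and 623 of single genes and other lists were counted as little changed. Another 40 values of the main results were counted as moved. Of single genes and other lists, 96 values moved by more than the spread over the 20 arrays. A further 3, those of GGCX and YAP1 given above, were counted as reversed. The count of little changed values did not check direction for list medians or for genes under 1.5-fold. The inflammatory NF-kB median after siRNA-RELA, for example, was 0.04 in the main setting and -0.11 against the mean of the 20 arrays. No paired analysis was possible because each targeting siRNA has 1 array, whose replicate number only names it, so no number ties an array to a partner. Signal over background limits the dim genes, which include most inflammatory and interferon genes.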

Other observations

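The 8 gene lists given here stayed within the range of the 20 arrays in all 3 knockdowns, except that with array medians aligned the lists of ATF4 and heat shock genes were below all 20 after siRNA-SP100, at -0.097 and -0.066. p53 target genes were lower in 13 of 20 after siRNA-RELA, 17 of 20 after siRNA-NMI and 12 of 20 after siRNA-SP100, with medians of -0.05, -0.06 and -0.04. Death receptor genes had medians of -0.04, 0.02 and 0.06, stress genes downstream of ATF4 0.02, 0.01 and -0.06, and heat shock genes 0.01, -0.01 and -0.03. Cholesterol genes had medians of 0.01, -0.05 and 0.08 and glycolysis genes 0.01, -0.09 and -0.02. Melanocyte lineage genes had 0.05, 0.02 and 0.00. Genes of the dedifferentiated melanoma state had medians of -0.03, -0.14 and -0.05, and 13 of 18 were lower after siRNA-NMI.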
